A study of Mus musculus with 6 samples.

Results

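Type 2 immunity in the gut wall is carried by group 2 innate lymphoid cells (ILC2) and by Th2 cells, and 10 genes of these cells were followed here: the type 2 cytokines Il4, Il5 and Il13, the tissue repair factor Areg, the lineage transcription factor Gata3, and the receptors or surface molecules Il17rb, Ptgdr2, Il4ra, Il9r and Klrg1. They were chosen by symbol, and all 10 were found among the 55401 gene IDs of the series. The values came from bulk RNA of cells isolated from the lamina propria of the colon, the connective tissue layer under the epithelium. The donors were male Apc Min/+ mice of 5 to 6 weeks, in which a truncating mutation of one copy of Apc, a brake on Wnt signalling, leads to intestinal adenomas. Both groups carry this mutation and were gavaged on alternate days. The vehicle group (3 libraries) received 2% Tween 80, and the atorvastatin group (3 libraries) received atorvastatin, an inhibitor of cholesterol synthesis, at 20 mg/kg. Whether the libraries came from separate animals is not in the labels, and p-values therefore cover only library-to-library spread, possibly of technical origin.

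As background, epithelial and stromal alarmins (IL-33, IL-25 and TSLP) act on receptors of ILC2, which then release IL-5 and IL-13 without antigen, whereas Th2 cells release IL-4, IL-5 and IL-13 after antigen recognition. IL-5 supports eosinophils, IL-13 drives mucus production, and both IL-4 and IL-13 signal through the IL-4 receptor alpha chain to the transcription factor STAT6. GATA3 is needed for both lineages and binds in the cytokine locus. Several of the genes are also used by other cells: Gata3, Areg and Klrg1 by regulatory T cells of the colon, Il4ra by B cells and macrophages, and Il4 and Il13 by mast cells and basophils.

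The 3 cytokine genes lie together on chromosome 11 of mm10, in the order Il4 (53602982 to 53618669, minus strand), Il13 (53631324 to 53634702, minus strand), Rad50 and Il5 (53720794 to 53725106, plus strand). The gap between Il4 and Il13 is 12654 bp and that between Il13 and Il5 is 86091 bp. Because GATA3 is itself one of the genes followed, the 250 bases upstream of each cytokine's start are shown (RefSeq, build GRCm38.p6, the build also called mm10), read 5′ to 3′ on the gene's strand. Capitals mark a GATA motif, searched on both strands in 4 spellings, with AGATAA as the first, AGATAG as the next, TGATAA as the third and TGATAG as the last.
Il5, chr11:53720544-53720793, plus strand: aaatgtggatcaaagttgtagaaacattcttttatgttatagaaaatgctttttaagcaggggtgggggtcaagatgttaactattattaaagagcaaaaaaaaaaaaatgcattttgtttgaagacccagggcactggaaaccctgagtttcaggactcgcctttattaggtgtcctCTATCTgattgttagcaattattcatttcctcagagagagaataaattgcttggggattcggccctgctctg
Il13, chr11:53634703-53634952, minus strand: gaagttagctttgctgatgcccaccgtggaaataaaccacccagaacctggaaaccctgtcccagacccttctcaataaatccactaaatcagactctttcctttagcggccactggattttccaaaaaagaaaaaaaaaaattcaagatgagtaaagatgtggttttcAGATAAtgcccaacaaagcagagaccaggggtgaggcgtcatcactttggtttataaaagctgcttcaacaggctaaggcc
Il4, chr11:53618666-53618915, minus strand: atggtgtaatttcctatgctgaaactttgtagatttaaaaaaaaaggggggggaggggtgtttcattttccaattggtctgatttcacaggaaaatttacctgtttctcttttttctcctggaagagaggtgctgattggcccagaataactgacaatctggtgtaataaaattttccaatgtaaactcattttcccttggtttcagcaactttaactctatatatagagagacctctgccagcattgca
The Il5 sequence holds 1 match, from 72 to 67 bases before the start, and the Il13 sequence holds 1 match, from 81 to 76 bases before it. The Il4 sequence printed holds 0 GATA matches. An inner start of Il4 has 1 GATA match, from 80 to 75 bases before it. Promoters were matched for 9 of the 10 genes (not Klrg1). Besides the cytokines, Il9r had 2 GATA matches in its 250 bases, and Areg, Gata3, Il17rb, Ptgdr2 and Il4ra had 0. Across all promoters matched in RefSeq (32851 sequences of this length) the GATA motif was held by 26.5%, so a match is common by sequence alone, and no binding was measured.

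Values were FPKM, fragments scaled by gene length and library, which allows levels of different genes to be set side by side. The summed FPKM of a library lay between 355787 and 456064. Sequencing depth is unknown, so no counting error can be given. Vehicle library 3 was the least like the rest, its Pearson r to the other libraries across tested genes averaging 0.944, where the other 5 averaged 0.957 to 0.961. It held the highest value of 27.3% of the tested genes and the lowest value of 27.5%. Results that rest on it are given with and without it. All 5 pan-leukocyte markers were measured in every library, and all 5 had lower values with atorvastatin (median log2 difference -0.33): they summed to 543 to 583 FPKM with vehicle and to 413 to 469 FPKM with atorvastatin, and 3 of them (Cd53, Cd52 and Coro1a) had groups that did not overlap, while Ptprc, which encodes CD45, overlapped at 13.89 to 19.47 FPKM. Epithelial transcripts were present too. Of 8 colonic epithelium markers 5 were tested, all 5 lower with atorvastatin (median -0.61). The list summed to 27.2 to 41.5 FPKM with vehicle and to 16.7 to 42.2 FPKM with atorvastatin. Under the filter, Krt20 had 0.53 to 0.63 FPKM with vehicle and 0.03 to 0.18 FPKM with atorvastatin. Vil1, also under it, had a higher mean with atorvastatin (0.90 and 1.10 FPKM) with overlapping groups, and Lgr5 did not exceed 0.16 FPKM. These shifts accompany every comparison below, and their part in the results was not tested.

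The genes spanned a wide range of levels. Il4ra was the most abundant (mean of 43.0 FPKM over the 6 libraries), followed by Il5 (29.6), Areg (9.41), Klrg1 (8.33), Gata3 (6.57), Il13 (5.63), Il9r (2.34), Il17rb (0.588), Il4 (0.367) and Ptgdr2 (0.157). Il4ra exceeded Il5 in each library other than vehicle library 3. The ranges of Areg, Klrg1, Gata3 and Il13 overlapped, so the order among these 4 genes is not fixed by the data. Il9r lay below all 4 and above Il17rb without overlap, and Il4 overlapped with both Il17rb and Ptgdr2.

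**Figure D1:**
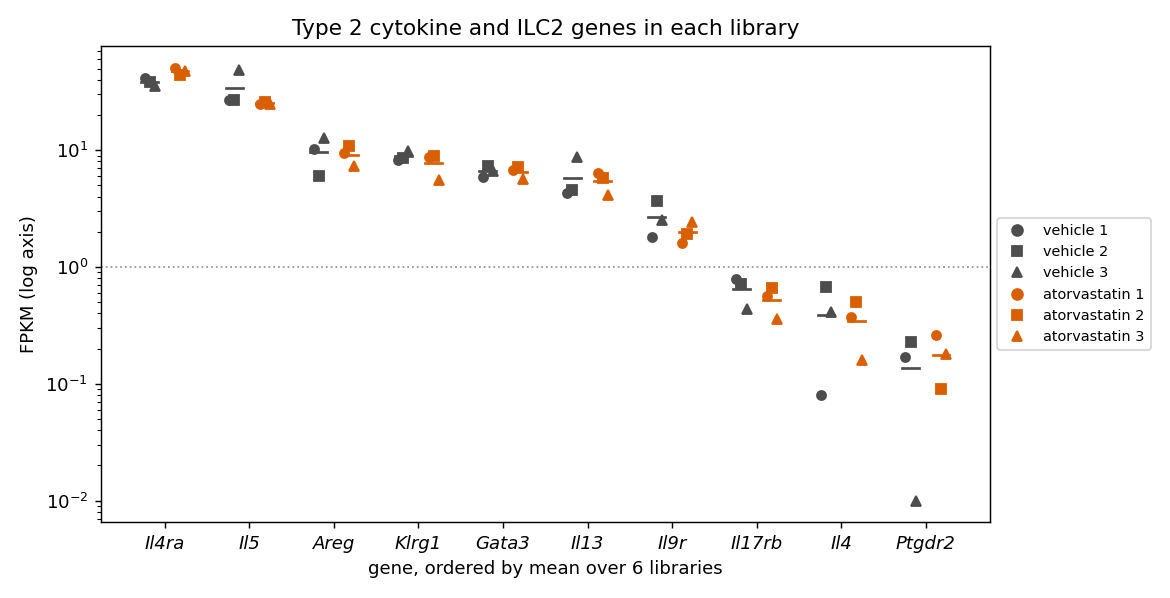
FPKM (log axis) of the 10 genes in each library, vehicle in grey and atorvastatin in orange, with the symbol shape giving the replicate and the short bar the group mean (n = 3). Il5 and Il13 have their highest point in vehicle library 3, Il4ra is the one gene with every atorvastatin point above every vehicle point, and Il17rb, Il4 and Ptgdr2 lie under the dotted line at 1 FPKM in all 6 libraries.

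Atorvastatin was compared with vehicle, the one contrast of a study that, by its title, asks how statins and microbial tryptophan catabolites act on colorectal cancer. No member passed the test over all genes, which 7 of the 10 entered. Il4, Il17rb and Ptgdr2 had only an exact permutation test, whose smallest two-sided p with 3 against 3 libraries is 0.1, so it could not reach 0.05. In limma on log2(FPKM + 1), run over the 13590 genes that reached 1 FPKM in 3 or more libraries and with Benjamini-Hochberg adjustment at 0.05, 0 of the 7 tested members passed, and the percentage of all tested genes that passed was 0 as well, with a smallest adjusted p of 0.291 over all genes. The 7 tested members reached 1 FPKM in all 6 libraries, so none entered the test through a single group. At an unadjusted p under 0.05, limma gave 1 of the 7 (Il4ra, higher), where 7.17% of all tested genes had such a p and 3.13% had one with a higher value. The groups did not overlap in 2 of the 10 genes, Il4ra (higher) and Il5 (lower), and in 14.4% of all tested genes, 5.53% higher and 8.85% lower, so this count is not a result about these genes. In bulk RNA, fewer cells of a type and less RNA per cell cannot be told apart.

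Among the cytokines, Il5 was by far the most abundant. Its values were 26.82, 26.98 and 48.11 FPKM with vehicle and 24.68, 25.83 and 25.05 FPKM with atorvastatin. The 3 atorvastatin libraries lay just under the 2 lower vehicle libraries, and vehicle library 3 stood far above the rest. The group means were 34.0 ± 12.3 FPKM (SD, n = 3) with vehicle and 25.2 ± 0.587 FPKM (SD, n = 3) with atorvastatin. The log2 difference was -0.36 (SE 0.23, 95% interval -0.91 to 0.185, limma adjusted p = 0.73). Without vehicle library 3 it was -0.09 (limma adjusted p = 0.756), and with FPKM rescaled between libraries by median of ratios the groups overlapped. The exact permutation test on FPKM gave a two-sided p = 0.1, the smallest that 3 against 3 libraries allow.

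Il13 had 4.30, 4.52 and 8.68 FPKM with vehicle and 6.38, 5.77 and 4.14 FPKM with atorvastatin. The groups overlapped, with the highest value again in vehicle library 3 and the lowest in atorvastatin library 3. Its log2 difference was -0.05 (SE 0.26, 95% interval -0.67 to 0.58, limma adjusted p = 0.973), with a sign that turned to 0.23 without vehicle library 3, to 0.11 without atorvastatin library 3 and to 0.02 with equal sums per library. Il4 had 0.08, 0.68 and 0.41 FPKM with vehicle and 0.37, 0.50 and 0.16 FPKM with atorvastatin, and was not tested in the fit because no library reached 1 FPKM. Its values in the vehicle group enclosed all those of the atorvastatin group, and the exact permutation test gave a two-sided p = 0.9.

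The 3 cytokines together summed to 31.2, 32.2 and 57.2 FPKM in the vehicle libraries and to 31.4, 32.1 and 29.35 FPKM in the atorvastatin libraries. Outside vehicle library 3 the sums of the groups interleaved. Il5 made up between 78.5% and 86.0% of the sum in every library. The ratio of Il5 to Il13 was 6.24, 5.97 and 5.54 with vehicle and 3.87, 4.48 and 6.05 with atorvastatin, so in vehicle library 3, where both genes were highest, their ratio lay within the range of the other 5 libraries. Gata3 did not stand out in that library, and Il5 per unit of Gata3 was 7.20 there against 3.58 to 4.58 elsewhere.

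The nearest protein-coding neighbours of the cytokines on chromosome 11, from Sept8 to Irf1, were not at their highest in vehicle library 3, whereas Csf2, farther along the chromosome, was (38.04 FPKM, against 32.09 and 35.77 in the other vehicle libraries). In percent of each gene's mean over the 6 libraries, Il5 stood at 163 and Il13 at 154 in that library. Rad50, a DNA repair gene whose introns hold a control region of the cytokine locus, stood at 79.8 there, its lowest value. Sept8, which encodes a septin, stood at 107.5 and Kif3a, a motor protein gene, at 90.0, and Irf1, an interferon-induced transcription factor gene, at 81.9. Other cytokine genes were also at their highest in vehicle library 3, among them Il22 (84.79 FPKM against 22.39 to 57.93 in the other libraries), Tslp (18.41 against 5.40 to 18.13) and Il9 (3.00 against 0.24 to 2.07). Il33, Il10, Lif and Il18 were not, and 27.3% of all tested genes had their highest value in that library. Mast cell markers, which could mark another source of Il13, had their lowest sum there (23.7 FPKM against 28.8 to 46.7 elsewhere), but the markers did not move together. Of the tested ones, Kit, Mcpt1, Gata2 and Tpsb2 were at their lowest there, while Cpa3, Mcpt2, Mcpt4, Cma1 and Hdc were not. The T cell marker sum of 83.6 FPKM lay within the range of the other libraries (74.0 to 101 FPKM). Macrophage markers had their highest sum there (138 FPKM against 62.4 to 116.5 elsewhere), most of it from C1qb (47.7), C1qa (38.32) and C1qc (15.62). Adgre1 was at its highest there too, while Csf1r, Cd68 and Mrc1 were not. Markers of ILC3 and Th17 cells also had their highest sum there (92.7 FPKM against 29.45 to 66.7), most of it from Il22. The part of cell composition in the high Il5 and Il13 of that library was not tested.

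**Figure D2:**
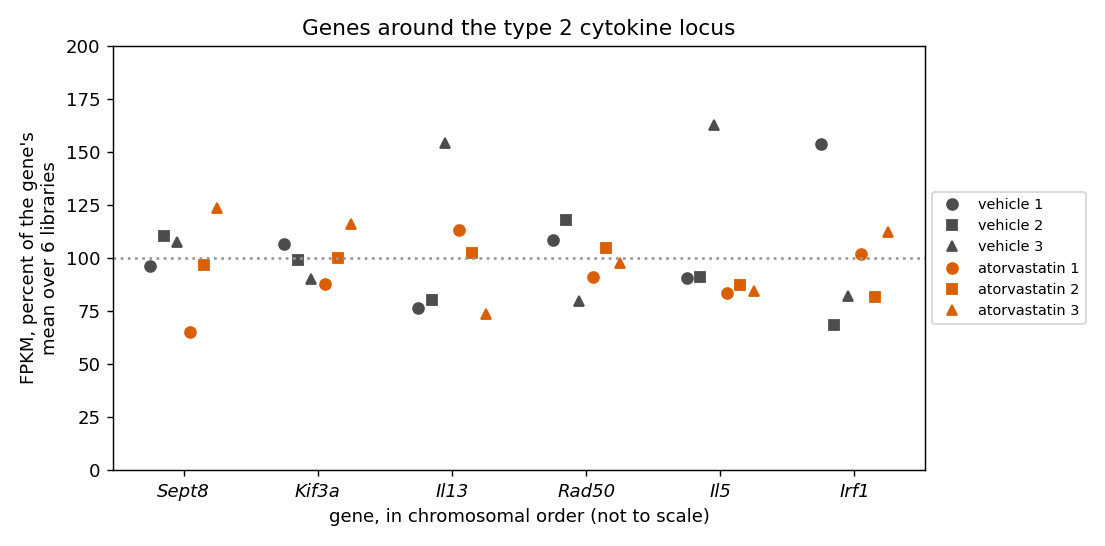
FPKM of Il13, Il5 and their nearest protein-coding neighbours in percent of each gene's mean over the 6 libraries (linear axis from 0), genes in chromosomal order and not to scale, vehicle in grey, atorvastatin in orange, symbol shape for the replicate. Vehicle library 3 (grey triangle) is at 163 for Il5 and 154 for Il13 and below 100 for Kif3a, Rad50 and Irf1. Il4, under 1 FPKM throughout, is left out.

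Areg encodes amphiregulin, a ligand of the EGF receptor that ILC2 and regulatory T cells release during tissue repair. It had 10.32, 5.97 and 12.68 FPKM with vehicle and 9.45, 10.76 and 7.28 FPKM with atorvastatin. The vehicle libraries held both the highest and the lowest value. The log2 difference was -0.03 (SE 0.27, 95% interval -0.66 to 0.60, limma adjusted p = 0.985), and its sign turned without vehicle library 3 (0.18), without vehicle library 1 (0.04), without atorvastatin library 3 (0.11) or with equal sums per library (0.04).

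Gata3 was the most even of the 10 genes, with the smallest ratio of highest to lowest library. It had 5.85, 7.32 and 6.68 FPKM with vehicle and 6.72, 7.21 and 5.65 FPKM with atorvastatin, and the groups covered nearly the same range. The log2 difference was -0.02 (SE 0.13, 95% interval -0.33 to 0.29, limma adjusted p = 0.98), with a sign that turned to 0.01 or 0.05 with either rescaling of the libraries, and likewise without vehicle library 2 (0.05) or atorvastatin library 3 (0.07). Noncoding and coding genes overlap the Gata3 locus, but all of them were listed at 0.35 FPKM or less.

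Il4ra encodes the alpha chain shared by the receptors for IL-4 and IL-13. It had 41.12, 38.64 and 35.71 FPKM with vehicle and 50.94, 43.68 and 47.97 FPKM with atorvastatin. Each atorvastatin library lay above each vehicle library, and vehicle library 3 had the lowest value. The group means were 38.5 ± 2.71 FPKM (SD, n = 3) and 47.5 ± 3.65 FPKM (SD, n = 3). Atorvastatin minus vehicle was 0.30 on the log2 scale (SE 0.12, 95% interval 0.01 to 0.59), with an unadjusted p of 0.0452 and an adjusted p of 0.692 in limma. It was 0.25 without vehicle library 3 and between 0.25 and 0.36 without any one library. The unadjusted limma p of Il4ra was 0.0367 without atorvastatin library 2. It was above 0.05 without each other library, up to 0.148 without atorvastatin library 1. Of cells known to carry the receptor, B cell markers summed to 310 to 419 FPKM with vehicle and to 248 to 263 FPKM with atorvastatin, and macrophage markers to 62.4 to 138 and to 105.5 to 116.5 FPKM. Of the 5 B cell markers all had lower means with atorvastatin, and of the 7 macrophage markers all had higher means. None of the defining markers in either list was at 0, and the part of these cells in the Il4ra values was not tested.

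Il9r encodes the receptor for IL-9, a growth and survival signal for ILC2 and mast cells. It had 1.82, 3.69 and 2.52 FPKM with vehicle and 1.62, 1.93 and 2.44 FPKM with atorvastatin. The groups overlapped, and vehicle library 2 was the highest. On the log2 scale the difference was -0.27 (SE 0.21, 95% interval -0.77 to 0.22, limma adjusted p = 0.756), and -0.08 without vehicle library 2. Klrg1, an inhibitory receptor of mature ILC2, regulatory T cells and cytotoxic lymphocytes, had 8.32, 8.64 and 9.89 FPKM with vehicle and 8.77, 8.85 and 5.50 FPKM with atorvastatin. Only atorvastatin library 3 lay apart, below the other 5. The difference on that scale was -0.22 (SE 0.18, 95% interval -0.65 to 0.22, limma adjusted p = 0.786), and -0.02 without that library.

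Il17rb, a receptor chain for the alarmin IL-25, and Ptgdr2, which encodes the prostaglandin D2 receptor CRTH2 of Th2 cells and ILC2, stayed under 1 FPKM in every library. Il17rb had 0.79, 0.72 and 0.44 FPKM with vehicle and 0.56, 0.66 and 0.36 FPKM with atorvastatin, with overlapping groups (exact permutation test, two-sided p = 0.4). Ptgdr2 had 0.17, 0.23 and 0.01 FPKM with vehicle and 0.26, 0.09 and 0.18 FPKM with atorvastatin, and its groups overlapped too (exact permutation test, two-sided p = 0.6). Both are uncertain beyond their low level, because other genes lie over them on the opposite strand: Actr8 (1.69 to 2.58 FPKM) shares 10220 bp with Il17rb, and Ccdc86 (4.79 to 5.94 FPKM) shares 1031 bp with Ptgdr2, and the strand setting of the counting is unknown here.

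**Figure D3:**
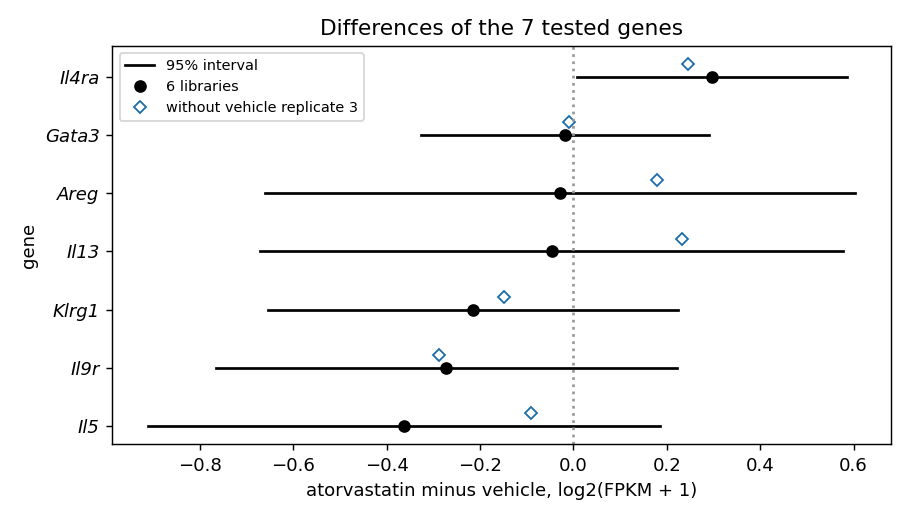
Differences of atorvastatin minus vehicle on the log2(FPKM + 1) scale for the 7 tested genes, as filled points with 95% intervals from limma over 6 libraries, and as open diamonds without vehicle library 3. Il5 moves from -0.36 to -0.09, Il13 and Areg change sign, Il4ra stays at 0.25, and every interval other than that of Il4ra includes 0.

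Profiles over the 6 libraries were compared with those of Il5 and Gata3 by the mean absolute difference of log2(FPKM + 1) after centring each gene on its own mean, among all tested genes. Nearest to Il5 were A430005L14Rik (0.07), Atp5j (0.07), which encodes a subunit of mitochondrial ATP synthase, and Memo1 (0.07). All 3 share its single high value in vehicle library 3, where Atp5j had 17.15 FPKM against 8.0 to 9.57 elsewhere. Nearest to Gata3 were Emp3 (0.01), Cln6 (0.02) and Ndufa6 (0.02). With 6 libraries that share their depth and composition within each library, this is a description of these libraries alone.

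The other genes of the pathway came from lists of signals, receptors, transcription factors, products and targets. No list held a gene past the adjusted threshold in limma. All tested genes had a median log2 difference of -0.02, with 53.0% of them lower. Genes named here outside the 2 most abundant of each list were chosen after their values were seen.

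Upstream of the ILC2, 7 of 13 alarmins and other activating signals were tested, 6 lower and 1 higher, with a median of -0.15 and 0 at an unadjusted p under 0.05. The most abundant were Il33, the main alarmin for ILC2 (19.2 ± 4.11 FPKM with vehicle and 15.6 ± 3.06 with atorvastatin, SD, n = 3), and Icosl, a costimulatory ligand (15.4 ± 3.41 and 13.7 ± 2.75 FPKM). The groups overlapped in both. Tslp had 11.99 ± 6.51 and 13.5 ± 4.62 FPKM, and Il25, the tuft cell alarmin whose receptor chain is Il17rb, did not exceed 0.20 FPKM in any library. Of 20 receptors for such signals 18 were tested, 12 lower and 6 higher, with a median of -0.08. One had an unadjusted p under 0.05 in limma: Il2rg, the common gamma chain used by the receptors for IL-4 and IL-9 (115 ± 11.4 and 91.4 ± 2.26 FPKM, log2 difference -0.32, adjusted p = 0.692). Beside it, the pan-leukocyte markers Cd53 (-0.46), Cd52 (-0.50) and Coro1a (-0.33) were lower as well, and their part was not tested. The next most abundant was Ramp3 (88.5 ± 20.3 and 74.1 ± 16.8 FPKM), which pairs with calcitonin receptor-like receptors. Il1rl1, the IL-33 receptor ST2, was at a level near that of Gata3, with 7.04, 7.55 and 6.50 FPKM with vehicle and 6.99, 7.51 and 5.86 FPKM with atorvastatin. Its groups overlapped, with a log2 difference of -0.05 (SE 0.12).

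All 17 genes of the transcription factor list, which also took in the RNA-binding protein gene Zfp36l1, were tested, 8 lower and 9 higher, with a median of 0.03 and 0 at an unadjusted p under 0.05. Bhlhe40 had 177 ± 39.6 FPKM with vehicle and 221 ± 45.3 with atorvastatin (SD, n = 3), and Zfp36l1, whose product promotes mRNA decay, had 158 ± 13.5 and 172 ± 25.1 FPKM. Rora, needed for ILC2 development, had 9.73, 9.40 and 10.31 FPKM with vehicle and 10.89, 10.61 and 11.77 FPKM with atorvastatin. Its groups did not overlap, which held for 1 of the 17 genes and, on the higher side, for 5.53% of all tested genes. The log2 difference of Rora was 0.16 (SE 0.10, limma adjusted p = 0.727).

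Of 13 other products of these cells 10 were tested, 7 lower and 3 higher, with a median of -0.06. The most abundant were Lif (86.7 ± 36.4 and 113 ± 12.9 FPKM) and Il6 (81.1 ± 34.8 and 75.5 ± 12.8 FPKM), cytokines that stromal and myeloid cells also make. One product had an unadjusted p under 0.05: Csf2, which encodes GM-CSF and lies farther along the same chromosome, at -0.70 on the log2 scale (SE 0.12, limma adjusted p = 0.627). It was at 35.77, 32.09 and 38.04 FPKM with vehicle and at 21.46, 19.40 and 23.28 FPKM with atorvastatin. Every vehicle library, with or without vehicle library 3, lay well above every atorvastatin library. Of 10 genes around the cytokine locus 8 were tested, 3 lower and 5 higher, with a median of 0.03, and Csf2 was the one at an unadjusted p under 0.05. Irf1, the most abundant, had 148 ± 66.9 and 144 ± 23.0 FPKM.

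Downstream, 10 of 11 receptor and kinase genes for type 2 cytokines and amphiregulin were tested, 1 lower and 9 higher, with a median of 0.17. Il13ra2, the untested gene, was lower without overlap: 0.98, 1.05 and 0.82 FPKM with vehicle and 0.5, 0.44 and 0.55 FPKM with atorvastatin. Jak1, the kinase bound to the IL-4 receptor, had 85.5 ± 8.28 and 96.7 ± 11.0 FPKM, and Csf2rb2, a mouse beta chain of the IL-3 receptor and close paralog of Csf2rb, had 24.0 ± 3.88 and 29.0 ± 4.37 FPKM. Reads of the 2 paralogs may be shared. Egfr, the receptor for amphiregulin, was the one with an unadjusted p under 0.05 (6.77 ± 0.744 and 8.94 ± 1.23 FPKM, log2 difference 0.35, SE 0.14, limma adjusted p = 0.692). Of 22 genes that respond to IL-4 or IL-13, 15 were tested, 11 lower and 4 higher, with a median of -0.22. The most abundant were Tgm2 (98.8 ± 6.15 and 121 ± 20.99 FPKM) and the eosinophil chemokine Ccl11 (111 ± 42.2 and 102 ± 19.4 FPKM), and neither had separate groups.

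In this response list, 4 of the 15 had an unadjusted p under 0.05, all lower with atorvastatin, where 4.04% of all tested genes had such a p and a lower value. The list was chosen with earlier results of these data known, so this count is not a test of the response genes. Ccl17, a chemokine for Th2 cells made mainly by dendritic cells, had 13.73, 12.97 and 13.07 FPKM with vehicle and 3.97, 5.77 and 5.67 FPKM with atorvastatin. Every atorvastatin library was far below every vehicle library, by -1.23 on the log2 scale (SE 0.14, limma adjusted p = 0.291). The other 3 were Pdcd1lg2, the PD-1 ligand 2 (14.5 ± 0.918 and 11.2 ± 1.56 FPKM), Fcer2a, the B cell IgE receptor CD23 (9.97 ± 1.44 and 7.28 ± 0.783 FPKM), and Retnla (7.77 ± 2.45 and 4.85 ± 0.823 FPKM). B cell marker sums were also lower with atorvastatin, as given above, and their part in these values was not tested.

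**Figure D4:**
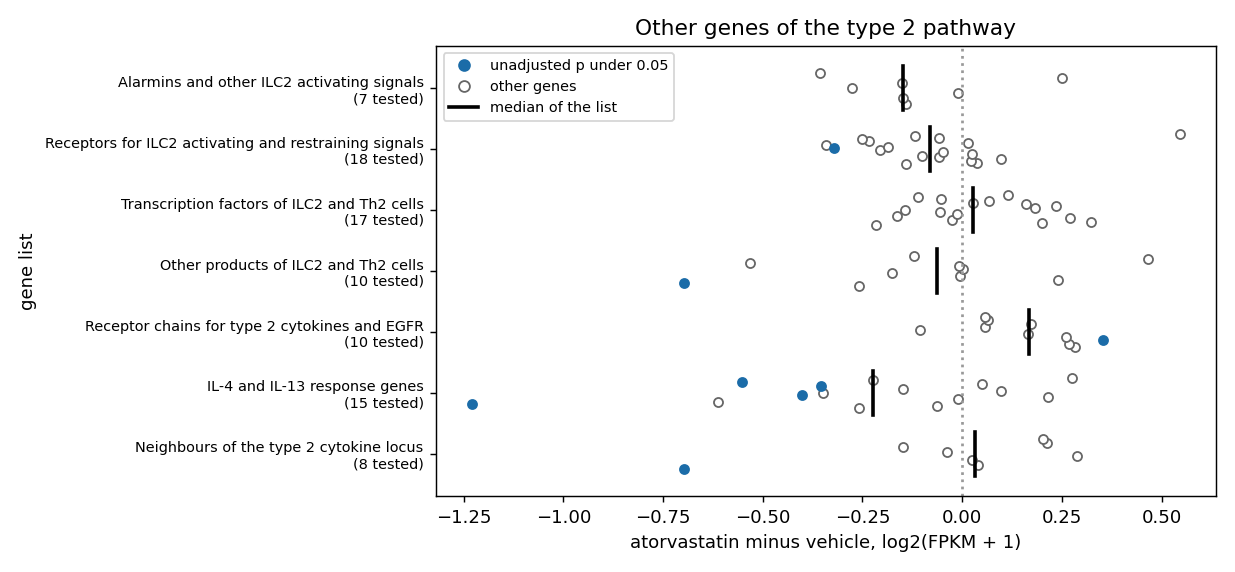
Differences of atorvastatin minus vehicle on the log2(FPKM + 1) scale for every tested gene of the 7 lists, 1 point per gene, filled where limma's unadjusted p is under 0.05, with a black bar at the median of each list. The response list has 4 filled points, with Ccl17 at -1.23 farthest to the left, and the medians run from -0.22 in that list to 0.17 in the receptor and kinase list.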

How the data were processed

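Bulk RNA was measured in 6 libraries (3 vehicle, 3 atorvastatin). Per the file headers, the authors deposited FPKM, here with 2 decimals; sequencing depth is unknown and counts were not recovered. FastQC 0.11.2, Bowtie and mm10 are named in the submitters' processing notes, while nothing on quantifier, annotation or strandedness is given in the sources used here. Symbols came from GENCODE mouse release M21, which gives 55141 of 55401 IDs a symbol and the same start and end to all 10 members; 190 of 191 listed symbols were matched, with Sept8 present under its older name.

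The 13590 genes that reached 1 FPKM in 3 or more libraries were tested with limma 3.58.1 (trend, R 4.3.3) on log2(FPKM + 1), which understates changes of low genes; the code was tested on simulated data. Members under the filter had an exact permutation test. Named genes were all 10 members, the 2 most abundant of each list, and the 3 profiles nearest to Il5 and Gata3; other genes named were chosen after their values were seen. The members and lists were chosen with earlier results of these data known. Alternatives were the pseudocount, the filter, 2 rescalings, a block on the replicate number, and the omission of each library.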

Additional observations from a re-analysis of the deposited data

How the results depend on the processing

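Il5, Il9r and Klrg1 had negative and Il4ra positive log2 differences under all 13 alternatives run, and none of the 7 tested members passed limma's adjusted threshold in any. Leaving out 1 library in turn gave ranges of -0.50 to -0.09 for Il5, -0.45 to -0.08 for Il9r, -0.32 to -0.02 for Klrg1 and 0.25 to 0.36 for Il4ra, and also -0.20 to 0.23 for Il13, -0.31 to 0.18 for Areg and -0.0924 to 0.0684 for Gata3, and in FPKM of -0.202 to 0.0983 for Il4, -0.228 to -0.04 for Il17rb and -0.0233 to 0.0867 for Ptgdr2. The sign turned without vehicle library 1 for Areg (0.04). It turned without vehicle library 2 for Gata3 (0.05) and Il4 (0.0983 FPKM). Without vehicle library 3 it turned for Il13 (0.23), Areg (0.18) and Ptgdr2 (-0.0233 FPKM), and without atorvastatin library 1 for Ptgdr2 (-0.00167 FPKM). Without atorvastatin library 3 it turned for Il13 (0.11), Areg (0.11), Gata3 (0.0684) and Il4 (0.045 FPKM). With median-of-ratios scaling it turned for Gata3 (0.00605), and with equal sums outside immunoglobulin and mitochondrial genes for Il13 (0.0177), Areg (0.0402) and Gata3 (0.0462). The cause was not tested. Either rescaling left 1 member with groups that do not overlap in place of 2. Of all tested genes, 15.2% did not overlap with median-of-ratios scaling and 15.6% with equal sums. The count of members was 2 to 3 without any one library, where 20.6% to 28.1% of all tested genes did not overlap. Over all genes limma called 0 in the full set and 0 to 2 without any one library: 1 without atorvastatin library 1 (Gm8210) and 2 without atorvastatin library 3 (Igkv1-99 and Gm26712), none of them a member. Genes at an unadjusted p under 0.05 numbered 974 in the full set and 459 to 1138 without any one library.

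The replicate numbers did not pair the libraries: the correlation of same-numbered deviations from the group means was -0.109, 0.137 and -0.0151, and not every library correlated best with its own number. With the replicate number as a block limma called 0 genes, with 852 at an unadjusted p under 0.05, and Il4ra kept its difference of 0.30 with an unadjusted p of 0.0601. The unknown depth limits Il4, Il17rb and Ptgdr2, whose values under 1 FPKM may rest on few fragments.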

Other observations

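Markers of eosinophils, basophils and tuft cells were low. Of 6 eosinophil markers 3 were tested, and their sum was 12.6, 16.9 and 13.1 FPKM with vehicle and 12.9, 15.4 and 10.9 FPKM with atorvastatin, most of it from Prg2 (6.54 to 11.65 FPKM), the major basic protein gene, while the eosinophil peroxidase gene Epx was at or near 0 (highest value 0.01 FPKM). The groups overlapped, and vehicle library 3, with the highest Il5, did not have the highest sum. Of 5 basophil markers 0 passed the filter, with sums of 0.58 to 1.79 FPKM over the 6 libraries. Of 6 tuft cell markers, the epithelial source of IL-25, 2 were tested, and the sums were 3.99 to 4.09 FPKM with vehicle and 4.46 to 5.67 FPKM with atorvastatin. Those sums did not overlap, but neither did the groups of 14.4% of all tested genes. The larger part came from Dclk1 (1.46 to 2.57 FPKM) and Avil (0.86 to 1.74 FPKM), whose own groups overlapped. Sh2d6, under the filter, had overlapping groups too (0.67 to 1.1 FPKM). Pou2f3, the lineage factor of tuft cells, had 0.20, 0.24 and 0.25 FPKM with vehicle and 0.40, 0.45 and 0.65 FPKM with atorvastatin, without overlap but under the filter, while Trpm5 did not exceed 0.07 FPKM and Gnat3 was listed at 0 in 4 libraries.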
